A study of Mus musculus with 6 samples.

Results

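The 40 genes described here are mouse autophagy machinery and receptor genes, chosen by name and found by their Entrez IDs, and all 40 had a row among the 13426 genes of the table. They comprised 5 genes of the ULK1 complex, 6 of the class III PI3K complex, 5 for lipid supply and PI3P effectors, 11 for conjugation enzymes and ATG4 proteases, 6 cargo receptors, 2 transcription factors and 5 further genes.

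Macroautophagy is the route by which a cell encloses cytoplasm in a double membrane, the autophagosome, and delivers it to the lysosome for breakdown. The ULK1 kinase complex starts the process, a class III phosphatidylinositol 3-kinase (PI3K) complex marks the membrane with the lipid PI3P, and ATG2, ATG9 and WIPI proteins bring lipid to the growing membrane. Conjugation enzymes then act at the growing membrane, and cargo receptors such as p62 bind the material to be degraded. TFEB and TFE3 are transcription factors that act on autophagy and lysosome genes, and in B lineage cells autophagy is best known for its role in long-lived memory B cells and plasma cells.

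RNA sequencing was performed on early LPre-B cells, large pre-B cells of an early kind from the bone marrow, sorted by surface markers, among them B220+, sIgM-, CD43+ and CD2-, and by large size, with 3 libraries per group. The Ctrl mice were Upf1 Flox/Flox with Mb1 +/+, so they carried the floxed alleles but no Cre. The Upf1-cKO mice were Upf1 Flox/Flox with Mb1 Cre/+, in which a Cre recombinase at the *Mb1* (*Cd79a*) locus acts in B lineage cells and removes internal exons of *Upf1*. All were adult, age-matched mice of the C57BL/6 background and of either sex. UPF1 is an RNA helicase required for nonsense-mediated mRNA decay (NMD), and the comparison asks which transcripts differ when it is deleted at this stage. Values are normalised reads, that is reads plus 0.5 divided by a library size in units of 1e6 reads.

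Libraries held between 9732498 and 11006834 reads. The row with the most reads took between 13.75% and 23.77% of a library, and chi-square per degree of freedom between libraries of one group ran from 4.53 to 23.43, so no library repeated another. The targeted gene did not show lower counts in the libraries labelled as knockouts. *Upf1* read 260, 203 and 259 normalised reads in Ctrl libraries 1, 2 and 3 and 308, 283 and 299.7 in the cKO-labelled libraries (log2 fold change 0.31, SE 0.0892, adjusted p 0.00696 by limma). With each library centred on its median log2 value it was 0.20 (adjusted p 0.0645), and with a trend on transcript length and GC content removed it was 0.13 (adjusted p 0.239). The *Upf1* rise was thus not called under those 2 settings. The *Upf1* row sums the whole gene, does not resolve the removed exons and overlaps *Cers1* and *Gdf1*, so each direction below is that of the cKO-labelled libraries against Ctrl. Among B lineage markers, the transcription factor genes *Ebf1* and *Pax5* were abundant in all libraries, at 363 to 478 and 209 to 256 normalised reads in Ctrl and 417 to 433 and 214 to 219 in cKO-labelled libraries. *Cd79a*, whose locus carries the Cre allele, was lower (log2 fold change -1.58, adjusted p 1.24e-11). The NMD target genes *Gas5*, *Gadd45b* and *Ddit3*, named with their values known, had log2 fold changes of 2.33, 1.96 and 3.29, higher in the cKO-labelled group (adjusted p 2.34e-07, 1.51e-09 and 2.36e-14 by limma).

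Of the 40 autophagy genes, 11 were higher and 4 were lower in cKO-labelled than in Ctrl libraries (limma, called below an adjusted p of 0.05 over all 13426 genes), and 25 were not called. Among all genes 27.7% were higher and 25.0% were lower, which makes 52.7% called, against 37.5% of the autophagy genes. The libraries of the groups did not overlap for 17 autophagy genes, 11 higher and 6 lower, against 58.8%, 30.9% and 28.0% of all genes. Fold changes refer to log2(value + 1), on which the change of a weakly expressed gene is too small. Per kb of exon, Ctrl levels of the 40 genes ran from 0.174 normalised reads for *Wipi1* to 26.9 for *Atg101*. The median log2 fold change of the 40 genes was -0.02 and that of all genes was 0.01, while the median absolute value was 0.19 for the autophagy genes and 0.36 for all genes. The called genes that rose by at least 1 on this scale were *Gabarapl1*, *Atg10*, *Wipi1*, *Atg14* and *Atg12*, 5 of 40 against 7.5% of all genes, and no autophagy gene fell as far, against 3.54% of all genes. In bulk RNA, fewer cells of a type and less RNA per cell cannot be told apart. The study describes its replicates as biological, the labels do not tie libraries to mice, and the p-values measure the spread between these libraries. The summed neutrophil markers also differed between the groups, at 14.0 to 123 normalised reads in Ctrl and 329 to 462 in cKO-labelled libraries, and their part in the autophagy gene differences was not tested.

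**Figure D1:**
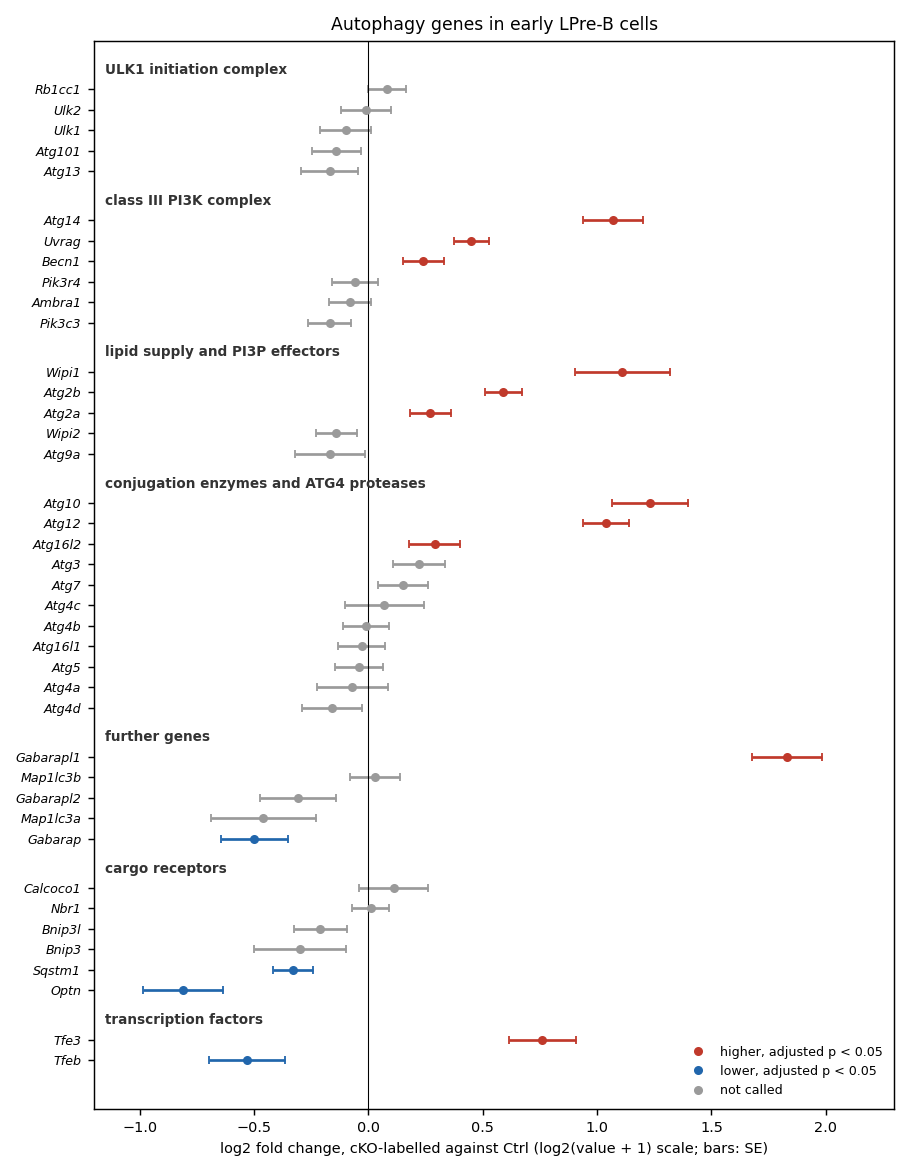
Log2 fold change of each of the 40 autophagy genes, cKO-labelled against Ctrl libraries (x axis, log2(value + 1) scale), in rows grouped by role. Points are limma estimates, bars are 1 SE, and colour gives the call. Of the 40 genes 11 were higher and 4 lower, against 27.7% and 25.0% of all genes, and no gene of the ULK1 complex was called.

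The split depended on how libraries were scaled. With each library centred on its median log2 value, 8 autophagy genes were higher and 9 lower, against 22.3% and 32.4% of all genes. Scaled to total reads, which moved the median of all genes to 0.19, 14 were higher and 1 was lower, against 38.5% and 14.4%. Quantile normalization gave 10 higher and 8 lower, against 24.8% and 27.9%, and removal of a trend on transcript length and GC content gave 9 and 12, against 24.8% and 32.3%. Under 20 alternative fits, *Gabarapl1*, *Atg10*, *Atg12*, *Atg14*, *Atg2b*, *Uvrag*, *Wipi1*, *Tfe3* and *Optn* were called in every fit that included them, and none of the 15 called genes changed sign in 298 values. *Becn1*, *Atg2a* and *Atg16l2* were not called with median centring (adjusted p 0.237, 0.119 and 0.175 by limma) or with the length and GC trend removed, and *Gabarap*, *Sqstm1* and *Tfeb* were not called with total-read scaling. Of the 25 genes not called, 20 changed sign in at least 1 fit.

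**Figure D2:**
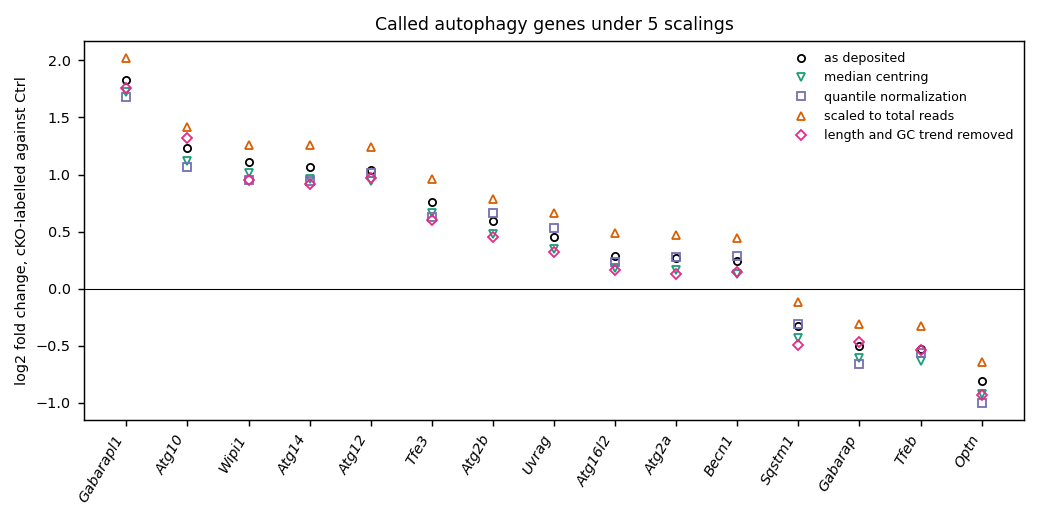
Log2 fold change (y axis) of the 15 called autophagy genes (x axis) under the deposited scaling and 4 others, as marked by symbol. Total-read scaling put every gene highest and brought *Sqstm1* to -0.12, and each of the 15 genes stayed on its side of 0.

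None of the 5 genes of the ULK1 initiation complex was called, against 52.7% of all genes, and their median log2 fold change was -0.10. *Ulk1* (chr5:110784489-110810120), the kinase of the complex, read 33.8, 35.8 and 28.4 normalised reads in Ctrl and 28.9, 31.2 and 30.8 in cKO-labelled libraries, and the groups overlapped (log2 fold change -0.10, SE 0.111, adjusted p 0.473 by limma). *Rb1cc1*, which encodes the scaffold FIP200, averaged 76.1 ± 4.46 (SD, n = 3) in Ctrl and 80.2 ± 2.51 (SD, n = 3) in the other group. *Ulk2*, *Atg13* and *Atg101* had log2 fold changes of -0.01, -0.17 and -0.14. For this complex the estimates lay within 0.17 of 0. *Ulk1* and *Atg13* passed the threshold as lower after removal of the length and GC trend, with adjusted p-values of 0.0292 and 0.014 by limma, and *Rb1cc1* passed it as higher under total-read scaling (0.28, adjusted p 0.0143).

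In the class III PI3K complex, 3 of 6 genes were higher and none was lower, against 27.7% and 25.0% of all genes. *Atg14* (chr14:47540893-47568434) encodes the subunit that directs the complex to the site where the autophagosome forms. It read 11.7, 12.7 and 11.6 normalised reads in Ctrl and 22.6, 28.0 and 28.4 in cKO-labelled libraries, so that every cKO-labelled library lay well above every Ctrl library. Its means were 12 ± 0.599 and 26.3 ± 3.23 (SD, n = 3), a log2 difference of 1.07 (SE 0.132, adjusted p 2.04e-06 by limma). *Uvrag* (chr7:98886742-99141167), the subunit that replaces ATG14 in the form of the complex that acts on endosomes, read 116, 110.5 and 110.1 in Ctrl and 160.2, 150.0 and 152 in cKO-labelled libraries. It rose by a smaller step without overlap of the groups (log2 fold change 0.45, SE 0.0756, adjusted p 6.01e-05).

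The log2 ratio of *Atg14* to *Uvrag* within a library, which does not move when all genes of a library are divided by a common factor, was -3.30, -3.12 and -3.25 in Ctrl and -2.83, -2.42 and -2.42 in cKO-labelled libraries, a difference of 0.67. After quantile normalization, which is not such a factor, *Atg14* and *Uvrag* had log2 fold changes of 0.94 and 0.53. The two-sided exact permutation test over 20 assignments gave p = 0.1, the smallest it can give, and adjustment over the 3 ratios computed left it at 0.1. The genes of each ratio were chosen after their values had been seen. *Becn1*, the scaffold of both forms of the complex, was higher by 0.24 (SE 0.0889, adjusted p 0.032 by limma), from 88.1, 105 and 109.9 to 119.8, 122 and 114. The nearest libraries of *Becn1*, at 109.9 and 114, lay close together, and leaving out Ctrl 1 or any cKO-labelled library ended the call, with adjusted p-values from 0.054 to 0.137. Without Ctrl 1, the lowest library, the log2 fold change of *Becn1* was 0.14, and without a cKO-labelled library it was 0.22 to 0.27. The lipid kinase itself, *Pik3c3*, and its partners *Pik3r4* and *Ambra1* were not called, with log2 fold changes of -0.17, -0.06 and -0.08.

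Among the genes for lipid supply and PI3P effectors, 3 of 5 were higher and none was lower, where the shares over all genes were 27.7% and 25.0%. *Atg2b* and *Atg2a* encode the proteins that transfer lipid to the growing membrane. *Atg2b* (chr12:105613539-105685297) read 100.2, 95.2 and 102 normalised reads in Ctrl and 164, 142 and 145.5 in cKO-labelled libraries, with no overlap (log2 fold change 0.59, SE 0.081, adjusted p 6.77e-06 by limma). *Atg2a* moved less, from 56.1 ± 2.66 to 68.0 ± 4.05 (SD, n = 3; log2 fold change 0.27, adjusted p 0.0148). Its call was lost when cKO-labelled library 1 or 3 was left out, at adjusted p-values of 0.0713 and 0.0696.

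*Wipi1* (chr11:109573521-109611389), a PI3P-binding protein, was the lowest of the 40 genes per length, at 0.174 normalised reads per kb of exon in Ctrl. It read 0.797, 0.657 and 0.844 normalised reads in Ctrl, which were 6 to 8 reads, and 3.07, 3.02 and 2.40 in cKO-labelled libraries, which were 28 to 33 reads. The groups stood far apart for so low a gene, and the ratio of means was 3.7. By log2(value + 1) the fold change was 1.11 (SE 0.207, adjusted p 0.00018 by limma), and with edgeR on the recovered reads it was 1.94 (adjusted p 0.000594). *Wipi2*, its more abundant relative, and *Atg9a*, the scramblase that seeds the membrane, were not called, with log2 fold changes of -0.14 and -0.17.

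**Figure D3:**
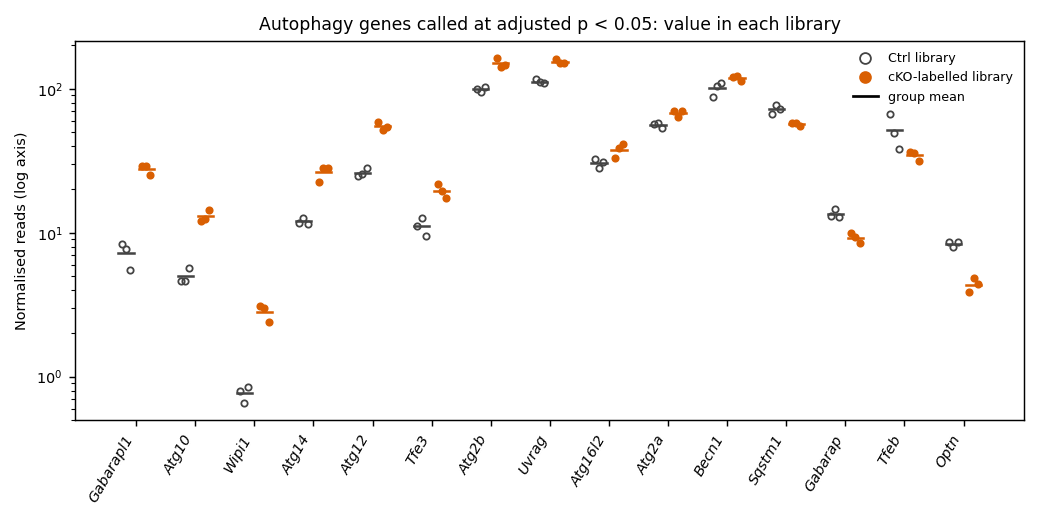
Normalised reads (y axis, log scale) in each of the 6 libraries for the 15 called autophagy genes (x axis), with open circles for Ctrl, filled circles for cKO-labelled libraries and a line at each group mean. The groups do not overlap for any of the 15 genes; *Atg16l2* comes closest, with 32.45 in Ctrl 1 and 33.03 in cKO-labelled library 1.

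Of the 11 conjugation enzymes and ATG4 proteases, 3 were higher and 8 were not called, a share of higher genes near the 27.7% of the whole table. ATG10 and ATG7 join ATG12 to ATG5, a product that acts with ATG16L1. *Atg10* (chr13:90935348-91224725) read 4.62, 4.60 and 5.71 normalised reads in Ctrl and 12.15, 12.5 and 14.5 in cKO-labelled libraries. The lowest cKO-labelled library was above the highest Ctrl library by a wide margin, a log2 difference of 1.23 (SE 0.166, adjusted p 5.64e-06 by limma). *Atg12* (chr18:46732417-46741724) read 24.7, 25.5 and 27.95 in Ctrl and 58.3, 51.7 and 54.4 in cKO-labelled libraries, which is a ratio of means of 2.1 (log2 fold change 1.04, SE 0.101, adjusted p 8.45e-08). The end of *Atg12* overlaps *Ap3s1*, whose mean was 1.96 in Ctrl and 1.04 in cKO-labelled libraries.

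*Atg5*, the acceptor to which ATG12 is joined, was not called (log2 fold change -0.04, SE 0.105, adjusted p 0.799 by limma). It read 33.2, 31.3 and 29.7 normalised reads in Ctrl and 28.8, 30.7 and 32.3 in cKO-labelled libraries, with overlapping groups. The log2 ratio of *Atg12* to *Atg5* within a library was -0.43, -0.29 and -0.09 in Ctrl and 1.02, 0.75 and 0.75 in cKO-labelled libraries. The difference was 1.11 (exact two-sided permutation p = 0.1, the smallest possible). Per kb of exon *Atg12* remained below *Atg5* in both groups, at 3.38 against 13.4 normalised reads in Ctrl and 7.11 against 13 in cKO-labelled libraries. *Atg16l2*, a relative of *Atg16l1*, was higher by 0.29 (adjusted p 0.035 by limma), and its call was lost without Ctrl 2 or cKO-labelled library 2 or 3, at 0.111, 0.105 and 0.175.

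The remaining enzymes were not called. *Atg7*, the E1-like enzyme of the conjugation step, and *Atg3*, an E2-like enzyme, had log2 fold changes of 0.15 and 0.22 and adjusted p-values of 0.273 and 0.114 by limma. *Atg16l1* was at -0.03 (SE 0.102). The 4 genes for ATG4 proteases lay between -0.16 for *Atg4d* and 0.07 for *Atg4c*. *Atg4d* overlaps *Kri1*, which was higher (log2 fold change 0.70), and *Atg4a* overlaps *Psmd10*. Since counting ignored strand, the reads of overlapping genes cannot be told apart.

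Of the further genes, *Gabarapl1* had the largest rise of the 40 genes on the log2(value + 1) scale and *Gabarap* was one of the falls. On the recovered reads *Gabarapl1* and the weakly expressed *Wipi1* lay close together, at 1.96 and 1.94 with edgeR and 1.94 and 1.95 with DESeq2. *Gabarapl1* (chr6:129533192-129542331) read 8.34, 7.73 and 5.51 normalised reads in Ctrl and 28.9, 29.3 and 25.1 in cKO-labelled libraries. Its lowest cKO-labelled library was 3 times the highest Ctrl library, and the ratio of means was 3.86. On the log2 scale the difference was 1.83 (SE 0.154, adjusted p 1.58e-08 by limma). *Gabarap* (chr11:69991370-69994949) read 13.1, 14.5 and 12.8 in Ctrl and 9.90, 9.33 and 8.47 in cKO-labelled libraries. It fell by 0.50 without overlap (SE 0.147, adjusted p 0.00821), and under total-read scaling its value was -0.31 (adjusted p 0.0821).

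*Gabarapl2*, *Map1lc3a* and *Map1lc3b* were not called. *Gabarapl2* read 8.445, 10.4 and 11.7 normalised reads in Ctrl and 8.441, 7.26 and 8.135 in cKO-labelled libraries, so the groups were separated only in the last digit. It passed the threshold as lower under median centring (-0.42, adjusted p 0.0395 by limma) and quantile normalization (-0.49, adjusted p 0.0182). *Map1lc3a* rested on 14 to 36 reads per library and differed by -0.46 on the log2 scale (SE 0.229, adjusted p 0.103). *Map1lc3b* had means of 44.0 ± 6.85 and 44.6 ± 1.66 (SD, n = 3; log2 fold change 0.03, adjusted p 0.846).

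Among the 6 cargo receptors none was higher and 2 were lower, against 27.7% and 25.0% of all genes, and 1 of the 2 calls was lost with total-read scaling. *Optn* (chr2:5020521-5064399), optineurin, a receptor for ubiquitin-tagged mitochondria and bacteria, read 8.66, 7.93 and 8.59 normalised reads in Ctrl and 3.85, 4.82 and 4.43 in cKO-labelled libraries. It was the autophagy gene with the largest fall, to a ratio of means of 0.52 (log2 fold change -0.81, SE 0.175, adjusted p 0.000744 by limma). *Sqstm1* (chr11:50200152-50210820) encodes p62, the receptor for ubiquitin-tagged protein aggregates. It read 66.2, 77.3 and 72.0 in Ctrl and 57.6, 58.0 and 55.5 in cKO-labelled libraries, a smaller fall without overlap (log2 fold change -0.33, SE 0.0889, adjusted p 0.0048), which was -0.12 (adjusted p 0.267) under total-read scaling.

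The other receptors were not called. *Nbr1*, a p62 relative, had means of 84.4 ± 2.15 and 84.7 ± 2.47 normalised reads (SD, n = 3; log2 fold change 0.01, SE 0.0802). *Calcoco1*, a receptor for autophagy of the endoplasmic reticulum, was at 0.11 (adjusted p 0.553 by limma). The mitophagy receptors *Bnip3* and *Bnip3l* had log2 fold changes of -0.30 and -0.21, with adjusted p-values of 0.221 and 0.134.

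The transcription factors moved in opposite directions. *Tfe3* (chrX:7762530-7775202) read 11.1, 12.7 and 9.48 normalised reads in Ctrl and 21.7, 19.3 and 17.4 in cKO-labelled libraries, and every cKO-labelled library exceeded every Ctrl library (log2 fold change 0.76, SE 0.146, adjusted p 0.000236 by limma). *Tfeb* (chr17:47737037-47792416) read 67.2, 49.05 and 38.0 in Ctrl and 36.15, 35.8 and 31.6 in cKO-labelled libraries. Its Ctrl libraries were widely spread and the groups were separated by a narrow gap (log2 fold change -0.53, SE 0.167, adjusted p 0.0197). Without Ctrl 1, the highest library, the value of *Tfeb* was -0.32 (adjusted p 0.0327), and the call was lost without Ctrl 2 (0.081), without cKO-labelled library 3 (0.0697) and under total-read scaling (0.088). The log2 ratio of *Tfe3* to *Tfeb* within a library was -2.60, -1.95 and -2.0 in Ctrl and -0.74, -0.89 and -0.86 in cKO-labelled libraries, a difference of 1.36 (exact two-sided permutation p = 0.1). Per kb of exon, *Tfeb* was the more abundant in both groups, at 9.07 against 1.20 in Ctrl and 6.09 against 2.10 in cKO-labelled libraries.

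TFEB and TFE3 bind the E-box, CACGTG, and its extended form, the CLEAR core TCACGTGA, while ATF4 and CHOP bind composite elements with the core TGATGNAA. Promoter windows, each of 300 bases that begin upstream of an annotated start site and end shortly after it, were at hand for 33 of the 40 genes as 39 windows (RefSeq, GRCm38.p6), and both strands were searched. An E-box was present in 5 windows (12.8%), against 7.15% of all promoters and 9.92% of those of genes in the table. Of the 9 higher and 4 lower genes with a window, *Atg14* had one, while *Becn1* and *Atg12* could not be searched. The CLEAR core, which contains the E-box, was in 1 window (2.56%), that of *Atg3*, against 0.974% of all promoters and 1.86% of those of genes in the table. The TGATGNAA core was in none, against 3.97% and 2.42%. The 6 E-boxes are printed on the strand of the gene, with the E-box in capitals and its first letter numbered from the annotated start site of the window.
Atg14, chr14:47568418-47568447, minus strand, position -1: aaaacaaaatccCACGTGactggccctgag
Atg3, chr16:45158723-45158752, plus strand, position -94: gcctccttttgtCACGTGtcctgggagagt
Atg3, chr16:45158746-45158775, plus strand, position -71, the CLEAR core: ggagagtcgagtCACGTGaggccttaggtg
Atg5, chr10:44268313-44268342, plus strand, position -14: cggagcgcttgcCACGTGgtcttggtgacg
Atg7, chr6:114670952-114670981, plus strand, position -132: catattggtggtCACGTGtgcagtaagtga
Bnip3, chr7:138909597-138909626, minus strand, position -108: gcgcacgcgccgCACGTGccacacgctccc

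The *Atg7* window lies inside the gene (chr6:114643127-114860604), at an annotated start site downstream of its 5′ end. Among the genes of these windows only *Atg14* was called, and *Atg3*, *Atg5*, *Atg7* and *Bnip3* had log2 fold changes of 0.22, -0.04, 0.15 and -0.30. A match is a string of letters and not evidence of binding.

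Transcript features of the called genes are given as descriptions, without a test. An annotated NMD transcript was present for 5 of the 11 higher genes (45.5%), *Becn1*, *Uvrag*, *Atg10*, *Atg16l2* and *Tfe3*, and for 8 of the 25 genes not called (32%). None of the 4 lower genes had one. Over the whole table the share was 28.9%, and it was 36.9% among all higher genes and 22% among all lower genes. The rises of *Gabarapl1*, *Atg12*, *Atg14*, *Atg2b* and *Wipi1* were in genes with no such transcript in the annotation. The median 3′ UTR was 1904 bases in the higher genes, 657 bases in the lower genes and 1115 bases over all genes with one.

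A set of 12 of the 40 genes has been described as induced through the stress factors ATF4 and CHOP during amino acid shortage in fibroblasts. The mRNA of both factors was higher here. *Ddit3* is among the NMD target genes named above, and the proteins were not measured in these libraries. *Atf4* read 70.2, 86.7 and 73.4 normalised reads in Ctrl and 196, 186 and 210.4 in cKO-labelled libraries (log2 fold change 1.36, adjusted p 6.54e-10 by limma). *Ddit3*, which encodes CHOP and overlaps *Mars1* and *Mbd6*, went from 10.3 ± 0.816 to 109 ± 1.67 (SD, n = 3; log2 fold change 3.29, adjusted p 2.36e-14). Of the 12 genes, 3 were higher (*Atg10*, *Atg12*, *Becn1*), 2 were lower (*Sqstm1*, *Gabarap*) and 7 were not called, against 27.7% higher and 25.0% lower over all genes, so these 12 were not called more often than the table as a whole. Their median log2 fold change was 0.02. *Trib3*, another target of both factors, was higher by 3.15 (adjusted p 2.5e-10). *Foxo3*, a transcription factor that acts on autophagy genes, was higher by 0.39 (adjusted p 0.0102, and 0.0553 under median centring), and *Hif1a*, the factor upstream of *Bnip3*, was not called (-0.08, adjusted p 0.432).

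Further autophagy genes were listed from general knowledge. Of the 41 with a row, 17 rose and 10 fell, against 27.7% and 25.0% of all genes, and their median log2 fold change was 0.10. With median centring 11 were higher, against 22.3% of all genes, and with total-read scaling 5 were lower, against 14.4%. *Snx14*, a sorting nexin of the endoplasmic reticulum, rose from 12.1 ± 0.979 to 104 ± 4.90 normalised reads (SD, n = 3; log2 fold change 3.0, adjusted p 8.18e-14 by limma). *Vps11* and *Vps16*, core subunits of the HOPS complex that tethers autophagosomes to lysosomes, were higher by 1.0 and 0.79. *Plekhm1*, an adaptor that links RAB7 to HOPS, fell by 1.0, from 95.7 ± 13.1 to 47.4 ± 4.56. *Vamp8*, the lysosomal SNARE of the fusion step, fell by 0.86, and *Rubcn*, which restrains the UVRAG form of the PI3K complex, fell by 0.51. All 6 were called in each of the alternatives.

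Of 41 genes of mTORC1 and AMPK signalling, which restrain and promote ULK1 respectively, 14 were higher and 9 lower, against 27.7% and 25.0% of all genes, with a median log2 fold change of 0.14. With total-read scaling 23 were higher and 3 lower, against 38.5% and 14.4%. *Sesn2*, an amino acid sensor that restrains mTORC1, was higher by 1.49 (adjusted p 3.12e-06 by limma), and its relative *Sesn3* fell by 0.75 (adjusted p 8.84e-05). *Fnip2*, a partner of folliculin, was higher by 1.69. *Ddit4*, the inhibitor REDD1, read 10.25, 7.02 and 25.6 normalised reads in Ctrl and 63.96, 41.8 and 40.25 in cKO-labelled libraries. The difference was 1.86 on the log2 scale (SE 0.537, adjusted p 0.0443), the Ctrl libraries were widely spread, and it was called in only 1 of 6 fits that left out a library. The call of *Ddit4* was also lost with median centring (adjusted p 0.0502 by limma) and with the length and GC trend removed (0.051). *Lamtor1* and *Rraga*, which hold mTORC1 at the lysosome, fell by 0.55 and 0.46.

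Of 44 lysosome genes, 15 were higher and 10 lower, near the 27.7% and 25.0% of all genes, with a median log2 fold change of 0.00. *Hexa*, a subunit of a hexosaminidase, rose from 26.9 ± 3.05 to 67.2 ± 1.94 normalised reads (SD, n = 3; log2 fold change 1.30, adjusted p 6.82e-09 by limma). *Cd63*, a lysosomal membrane tetraspanin, was higher by 0.89 on 0 to 23 reads per library. Genes of the proton pump were among the falls, with *Atp6ap1* at -1.35 (adjusted p 3.12e-09) and *Atp6v1f* at -0.95 (adjusted p 1.48e-06), and the sulfatase gene *Galns* was at -0.75.

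**Figure D4:**
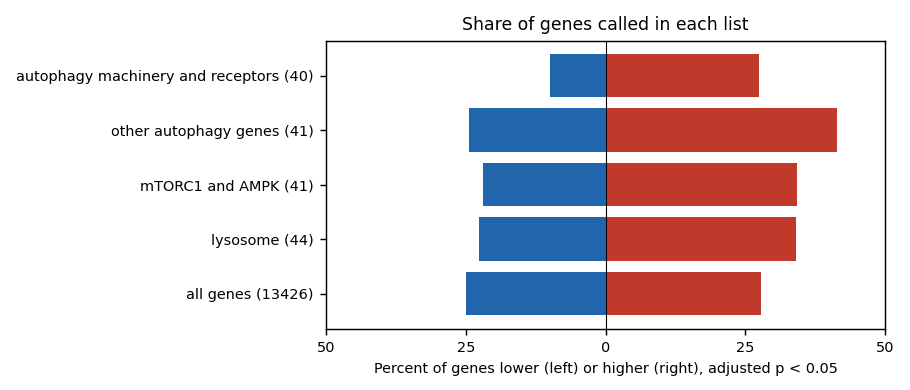
Percent of genes called lower (left, blue) and higher (right, red) at an adjusted p below 0.05 in 4 gene lists and in the whole table, with the number of genes in each. The 40 autophagy genes had the lowest share of lower calls, 4 of 40 against 25.0% of all genes, under the deposited scaling. With median centring it was 9 of 40, against 32.4% of all genes. With the length and GC trend removed it was 12 of 40, against 32.3%, and the lysosome list had a smaller share, 11 of 44.

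The summed markers of other cell types differed between the groups, though not through every marker. All 8 neutrophil markers had a row, and none was at 0 in every library of a group. Of these, 4 were called higher and 7 did not overlap between the groups, against 27.7% and 30.9% of all genes. *Elane*, *Ltf*, *S100a8* and *S100a9* were called. *Camp*, *Lcn2* and *Ngp* were not (adjusted p 0.0567, 0.0671 and 0.0572 by limma), and *Mpo* overlapped (log2 fold change 0.40, adjusted p 0.376). The summed level of the 8 markers was 123, 17.9 and 14.0 normalised reads in Ctrl and 462, 355 and 329 in cKO-labelled libraries, so Ctrl 1 stood 6.86-fold above the next Ctrl library. Of the 11 higher autophagy genes, Ctrl 1 was the highest Ctrl library for 3, *Uvrag*, *Atg16l2* and *Gabarapl1*. The same count was not made over all genes, and a part of neutrophil RNA in these rises was not tested. Of the macrophage and dendritic markers 5 of 7 had a row and summed to 32.8 to 45.1 in Ctrl and 54.5 to 66.8 in cKO-labelled libraries, with *Flt3* higher (3.36), *Itgam* lower (-0.42) and 3 not called. Without *Flt3* the other 4 summed to 42.7, 42.8 and 30.6 in Ctrl and 35.8, 27.9 and 25.6 in cKO-labelled libraries, so the higher sum came from *Flt3*. The 4 erythroid markers with a row summed to 20.4 to 24.1 and 13.3 to 18.4, the 4 plasma cell markers to 72.1 to 88.5 and 52.7 to 66.0, and the 2 T and NK markers with a row to 1.17 to 1.59 and 3.79 to 5.27.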

How the data were processed

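Libraries of mouse early LPre-B cells (3 Ctrl, 3 Upf1-cKO) were grouped by their labels. Per the study's methods and the submitters' processing notes, total RNA was depleted of ribosomal RNA, a directional kit was used, single-end reads were trimmed (cutadapt 4.0), aligned to mm10 with HISAT2 without use of strand, counted with featureCounts 2.0.1 and analysed with limma 3.48.0. The authors deposited 1 linear signal per gene and library. The steps between values showed each to be a read count with 0.5 added, over a scaled library size per 1e6, and whole reads were recovered for 100% of values (tolerance 0.05). No value column was left unused (0). Genes were named from RefSeq (GRCm38.p6; 13008 IDs) and GENCODE (3), and 415 stayed unnamed.

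Differences were tested with limma 3.58.1 (R 4.3.3) on log2(value + 1), using eBayes (trend, robust) with no covariate beside group, and p-values were adjusted by Benjamini-Hochberg over 13426 genes. Calls used an adjusted p below 0.05. SE are limma's moderated ones, SD are over libraries. Within-library ratios were compared by exact two-sided permutation. Exon lengths and NMD transcripts came from GENCODE (12155 genes, 90.5%). Alternatives were edgeR 4.0.16 and DESeq2 1.42.0 on recovered reads, voom, other scalings, pseudocounts and filters, the replicate block and leaving out each library. The script was tested on simulated data.

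The 40 genes and all gene lists, which come from general knowledge, were chosen with earlier results of these data known. All 40 were named, with values in each library mainly for genes called with a change of 0.5 or more on the log2 scale or that head a role. From each further list the 3 called genes with the largest change in each direction were named. Promoter windows for *Rb1cc1*, *Map1lc3a*, *Bnip3l*, *Atg12*, *Pik3c3*, *Becn1* and *Atg16l1* were not used here. Some planned items are not reported here.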

Additional observations from a re-analysis of the deposited data

How the results depend on the processing

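The count of all lower genes was 3351 and became 1936 when libraries were scaled to total reads. The count of lower autophagy genes was 4 and became 9 with median centring, 1 with total reads, 8 with quantile normalization, 12 with the length and GC trend removed and 11 with that trend and the replicate block, and the cause was not tested. The lower share of all genes was 25.0%, and in the first 4 of these settings 32.4%, 14.4%, 27.9% and 32.3%. In the last setting 3828 of 12155 genes were lower. Of the 41 other autophagy genes, 17 were higher, which became 11 with median centring (22.3% of all genes) and 11 with the length and GC trend and the block (2936 of all 12155 genes). Of the same list 10 were lower, which became 5 with total reads (14.4% of all genes). Of the mTORC1 and AMPK genes, 14 and 9 became 23 and 3 with total reads, against 38.5% and 14.4% of all genes.

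Leaving out each library in turn gave 3224 to 3643 higher and 2867 to 3350 lower genes, 8 to 12 and 3 to 5 among the autophagy genes, 13 to 17 and 8 to 11 among the other autophagy genes, 12 to 16 and 6 to 9 for mTORC1 and AMPK, and 12 to 15 and 8 to 11 for the lysosome. The log2 ratios ran from 1.15 to 1.47 (*Tfe3* to *Tfeb*), 0.60 to 0.81 (*Atg14* to *Uvrag*) and 1.02 to 1.20 (*Atg12* to *Atg5*). Leaving out the added 0.5 read, a setting chosen after seeing the data, gave 1.36, 0.67 and 1.11.

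With the replicate number as a block, 3668 genes were higher and 3321 lower, and among the autophagy genes 11 and 4. *Ddit4* was not called with the block (adjusted p 0.0835 by limma). Libraries with the same number did not deviate together (correlations 0.0821, -0.0298 and -0.0208). The deposited column names give consecutive sample numbers to the Ctrl and cKO-labelled libraries of each replicate number. Whether these numbers mark pairs is not stated, and correlations over 3 libraries per group cannot decide it. Genes under about 10 normalised reads, such as *Wipi1* and *Map1lc3a*, rest on few reads, which limits their estimates.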
